A study of Mus musculus with 7 samples.

Results

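The genes of cholesterol and fatty acid synthesis were examined in cortex RNA of APP/PS1 mice on a ketogenic or a control diet. The set holds 41 genes named by symbol: 18 enzymes of sterol synthesis, 7 regulators, 9 genes of sterol turnover, uptake and efflux, and 7 genes of fatty acid synthesis. They are 41 of the 23413 gene symbols in the files, and 1 of them, Msmo1, is listed under its older symbol Sc4mol. All 41 passed the filter on low counts that left 15881 genes for testing.

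All mice carried the APPswe and PSEN1dE9 transgenes on a C57BL/6 background, a mutant human amyloid precursor protein and a mutant presenilin whose expression is driven by prion promoter elements, and no wild-type library was analysed here. From 6 months of age they received either the control diet (CD, labelled SD), with 74% of its energy as carbohydrate, 10% as protein and 16% as fat, or the ketogenic diet (KD), with less than 0.5%, 10% and 90%. Brain cortex was taken at 13 months, after 7 months on the diet, from 4 CD and 3 KD mice that had been housed singly, and both sexes were used in the study without the sex of each library being given. Both diets were given in fixed daily amounts of equal energy. The ketone body beta-hydroxybutyrate was measured in blood after a meal and after an overnight fast. Tissue was collected once the morning measurement had been made. Total RNA was sequenced, and the deposited values are raw read counts for each gene and mouse, shown here as CPM, each count scaled to the size of its library so that libraries can be compared.

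Cholesterol does not cross the blood-brain barrier, so the brain makes its own. Acetyl-CoA is built into mevalonate, isoprenoid units are joined to squalene, and squalene is closed to lanosterol and trimmed to cholesterol. SREBP-2, the product of Srebf2, switches on these enzymes when membrane sterol is low: SCAP carries it to the Golgi, and INSIG proteins hold it back when sterol is plentiful. SREBP-1, from Srebf1, acts mainly on fatty acid genes. The liver X receptors Nr1h2 and Nr1h3 sense oxysterols and switch on export genes such as Abca1 and Abcg1, while Cyp46a1 turns neuronal cholesterol into 24-hydroxycholesterol that can leave the brain. In the adult brain astrocytes supply much of the new sterol, and oligodendrocytes use large amounts for myelin.

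SREBP-2 acts together with the factor NF-Y, whose binding sequence is the CCAAT box, so promoter windows of 3 enzymes and the regulator Insig1 are shown with both motifs marked. The windows, from RefSeq on GRCm38.p6, the assembly also called mm10, run from 250 bases before to 50 bases after the start site. Capitals mark a match on either strand to the sterol regulatory element TCACNCCAC or to CCAAT, which reads ATTGG on the other strand. The windows lie at chr13:119690101-119690400 (Hmgcs1, plus strand), chr13:8885356-8885655 (Idi1, plus), chrX:72918271-72918570 (Nsdhl, plus) and chr5:28071162-28071461 (Insig1, plus).
Hmgcs1: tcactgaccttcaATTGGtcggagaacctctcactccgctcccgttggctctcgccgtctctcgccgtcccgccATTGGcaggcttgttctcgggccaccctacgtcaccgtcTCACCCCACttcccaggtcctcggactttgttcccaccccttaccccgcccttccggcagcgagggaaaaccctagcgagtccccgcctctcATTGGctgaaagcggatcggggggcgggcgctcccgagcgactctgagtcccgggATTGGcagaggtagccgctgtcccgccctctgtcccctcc
Idi1: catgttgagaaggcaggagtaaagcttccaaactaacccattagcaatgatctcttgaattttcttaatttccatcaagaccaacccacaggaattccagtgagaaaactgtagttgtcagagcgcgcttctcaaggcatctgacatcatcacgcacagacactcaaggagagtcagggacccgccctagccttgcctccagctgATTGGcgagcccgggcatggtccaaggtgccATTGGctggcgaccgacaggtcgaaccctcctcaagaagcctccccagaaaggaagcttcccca
Nsdhl: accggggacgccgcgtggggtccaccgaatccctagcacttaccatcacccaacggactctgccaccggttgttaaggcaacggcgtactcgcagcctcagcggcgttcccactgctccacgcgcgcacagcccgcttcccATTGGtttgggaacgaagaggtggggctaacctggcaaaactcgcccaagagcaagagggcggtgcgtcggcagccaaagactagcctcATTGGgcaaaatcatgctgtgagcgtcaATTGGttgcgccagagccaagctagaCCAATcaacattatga
Insig1: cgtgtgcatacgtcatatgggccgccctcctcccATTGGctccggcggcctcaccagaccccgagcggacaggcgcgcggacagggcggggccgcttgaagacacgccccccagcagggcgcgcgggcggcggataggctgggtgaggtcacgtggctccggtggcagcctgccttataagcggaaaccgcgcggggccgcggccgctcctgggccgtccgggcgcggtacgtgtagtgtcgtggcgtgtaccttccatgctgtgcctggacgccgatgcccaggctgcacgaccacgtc

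The Hmgcs1 window holds 1 sterol element and 4 CCAAT boxes, the Nsdhl window 4 CCAAT boxes, the Idi1 window 2 and the Insig1 window 1. Windows were found for 15 of the 18 enzymes and for 32 of all 41 members. A CCAAT box lay in a window of 14 of the 15 enzyme genes (93.3%), against 42.3% of the 11499 tested genes with a window and 41.1% of all 27025 genes with one. Counted by window, some genes having several, it lay in 77.8% of the enzyme windows and 37.1% of those of tested genes. It lay in 4 of 7 regulators, 3 of 5 turnover genes and 3 of 5 fatty acid genes. The motifs were searched on both strands. The sterol element as spelled was found in Hmgcs1 and in no other member with a window, against 1.39% of tested genes. Of the 4 motifs searched, the GC box GGGCGG lay in 14 of the 15 enzymes, against 65.5% of tested genes, and the E-box CACGTG in 3 of 15 (20%), against 11.1%. These are matches of letters in a short window and not measured binding.

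Libraries held from 22272883 to 36614954 counts and KD replicates 1 and 3 were shallower than every CD library, so that 1 CPM is 22.3 to 36.6 counts. The least abundant member, Nr1h3, had 40 to 124 counts per library. Of 10 cortical neuron markers, all were at 1 CPM or more in every library. Their summed levels were 1002 CPM in CD replicate 4, 1003 CPM in KD replicate 3 and 1276 to 1426 CPM elsewhere. A list of 8 neuron markers was also lowest in KD replicate 3 (6857 CPM) and CD replicate 4 (7437 CPM), against 8395 to 8927 CPM elsewhere. Other tissue varied between libraries of the same diet: 12 oligodendrocyte markers summed to 1248 CPM in CD replicate 3 and 1277 CPM in KD replicate 3, against 2375 to 4717 CPM elsewhere. CD replicate 4 held the most meningeal (294 CPM) and olfactory bulb (77.0 CPM) marker RNA, followed by KD replicate 3 (138 and 19.9 CPM), against at most 80.6 and 11.1 CPM in the others. In cortex RNA, fewer cells of a type and less RNA per cell cannot be told apart. Values without these libraries are given below for the enzymes, the regulators and the fatty acid genes and for single genes they moved by a large amount.

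Levels differed widely along the pathway. Per kilobase of annotated exon, the most abundant member was Scd2, the main stearoyl-CoA desaturase of brain, at 208 CPM per kb in CD and 216 in KD. Next came Hmgcs1, which makes HMG-CoA, at 114 and 133 CPM per kb, then Acly, which supplies cytosolic acetyl-CoA, at 54.5 and 56.8, and Insig1 at 51.3 and 53.3. Low among the sterol enzymes were Idi1 (2.66 and 3.45 CPM per kb), Lss (2.85 and 3.17), Dhcr7 (3.07 and 3.73) and Tm7sf2 (3.37 and 3.53), whose order differed between the diets. The length used is the union of all annotated exons of a gene, so a long annotation lowers the value. For Lss, 30.8 CPM in CD was divided by 10.8 kb. Nr1h3 was the lowest of all members, at 0.903 and 0.812 CPM per kb, and its relative Nr1h2 stood at 3.76 and 2.87. Within either diet, the neighbours Scd2 and Hmgcs1 lay far apart relative to a spread of at most 17.0% of the mean in each, whereas the group means of Acly and Insig1 lay within the spread of Insig1.

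**Figure D1:**
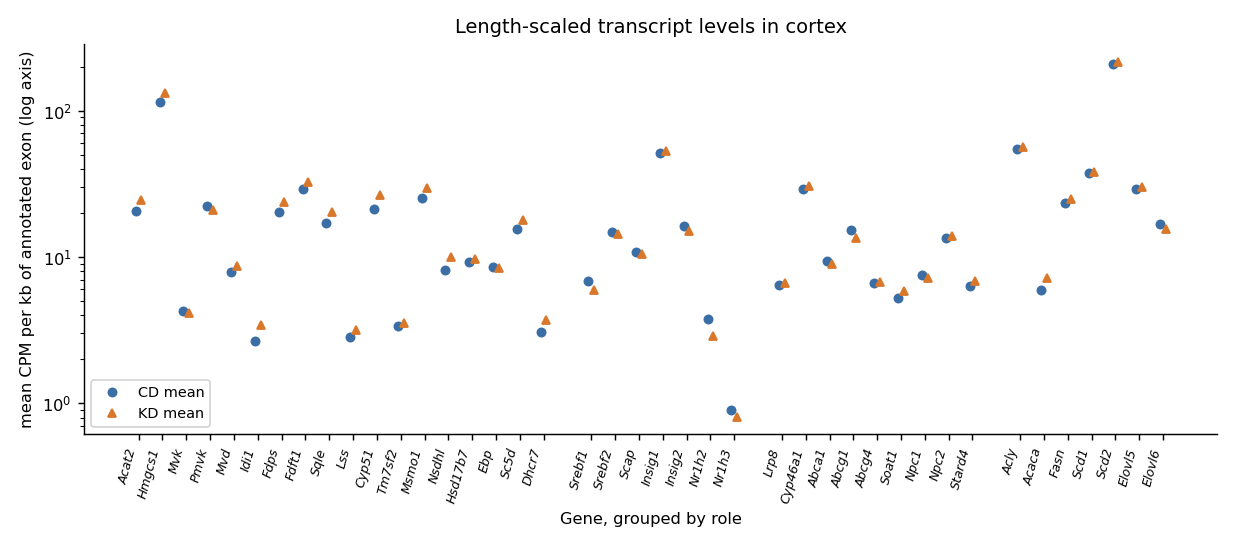
Mean level of each of the 41 members in CD (circles, 4 libraries) and KD (triangles, 3 libraries), in CPM per kilobase of annotated exon on a log axis, grouped by role. Scd2 and Hmgcs1 lie above 100 CPM per kb and Nr1h3 below 1.

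The first comparison asked whether the enzymes that make sterols differed in cortex between the diets. In the fit of edgeR's quasi-likelihood test, 15 of the 18 enzymes were higher in KD, with a median log2 fold change of 0.22, where 49.0% of all tested genes were higher and their median was -0.0033. None passed the adjusted threshold of 0.05, and none had a raw p of at most 0.01, which 0.321% of tested genes reached. At a raw p under 0.05, 4 enzymes (Idi1, Sqle, Nsdhl and Dhcr7) were higher and 0 lower, 4 of 18 or 22.2%, where 1.66% of tested genes were higher and 1.52% lower at that threshold. The differences were small: the largest was 30.4% (Idi1) and the next 25.4% (Cyp51). By DESeq2 and limma-voom, too, 0 genes passed the adjusted threshold, while 506 genes (3.19%) had a raw p under 0.05 in edgeR's test.

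Idi1, which isomerizes isopentenyl diphosphate, had 9.55, 10.5, 8.51 and 8.74 CPM in CD replicates 1 to 4 and 11.9, 11.8 and 12.5 CPM in KD replicates 1 to 3. Every KD library lay above every CD library. The log2 fold change was 0.38 (standard error 0.13), with a raw p of 0.0172 and an adjusted p of 0.979 in edgeR's quasi-likelihood test. A two-sided exact permutation test on the log2 CPM gave a p of 0.0571. With these group sizes the smallest p that exact test can give is 0.0286. The log2 fold change stayed between 0.34 and 0.46, with a raw p under 0.05, when any 1 library was left out. It was 0.33 without CD replicate 4 and KD replicate 3 and 0.34 without CD replicate 3 and KD replicate 3, in both cases without a raw p under 0.05. The gene lies at chr13:8885501-8892451 on the plus strand (GRCm38, ENSMUSG00000058258.14), and 323 bases of its exons are shared with an antisense transcript.

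Nsdhl, an X-linked enzyme that helps remove methyl groups from lanosterol, had 24.3, 22.4, 26.1 and 20.7 CPM in CD and 27.7, 27.8 and 30.0 CPM in KD, again without overlap. Its log2 fold change was 0.29 (standard error 0.11, raw p = 0.0258, adjusted p = 0.979, exact permutation p = 0.0571). Sqle, the squalene epoxidase and a rate-controlling step, had 102, 89.9, 91.9 and 97.3 CPM in CD and 113, 100.1 and 123 CPM in KD. The KD replicate 2 value lay inside the CD range, and the log2 fold change was 0.24 (standard error 0.09, raw p = 0.0200, exact permutation p = 0.0571). Dhcr7, the last enzyme of one branch to cholesterol, had 19.2, 17.3, 15.4 and 19.6 CPM in CD and 18.9, 21.4 and 24.8 CPM in KD. Its groups overlapped through KD replicate 1, and its log2 fold change was 0.29 (standard error 0.12, raw p = 0.0469, exact permutation p = 0.143). With 1 library left out, the raw p stayed under 0.05 in 5 of 7 fits for Sqle (0.18 to 0.31), 3 of 7 for Nsdhl (0.22 to 0.35) and 2 of 7 for Dhcr7 (0.20 to 0.38). The threshold was missed for Sqle without KD replicate 1 or 3, for Nsdhl without CD replicate 2 or 4 or KD replicate 2 or 3, and for Dhcr7 unless CD replicate 4 or KD replicate 1 was the library left out.

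Hmgcs1, whose promoter is shown above, had 627, 533, 500.2 and 429 CPM in CD and 634, 594 and 599.9 CPM in KD. Only CD replicate 1 reached the KD range, and the log2 fold change was 0.23 (standard error 0.13, raw p = 0.123, exact permutation p = 0.171). Fdft1, the squalene synthase, was the other enzyme whose groups did not overlap, with 127, 127, 127 and 110.4 CPM in CD and 147, 131 and 132 CPM in KD. Its log2 fold change was 0.16 (standard error 0.10, raw p = 0.131, exact permutation p = 0.0286, the smallest possible), and 774 bases of its exons are shared with Ctsb on the opposite strand. Without CD replicate 4 the log2 fold change of Hmgcs1 was 0.13, that of Fdft1 0.10 and that of the farnesyl diphosphate synthase gene Fdps 0.14. Exons of 13 of the 41 members overlap another annotated gene, among them Fdps with Gm43738 on the same strand (1124 bases) and Tm7sf2 with Vps51 (532 bases). The strand setting of the counting is not given in the sources used here, so reads of such pairs cannot be told apart with certainty. In all, 3 of the 18 enzymes were higher without overlap and 0 lower, where the ranges of 1.64% of tested genes were higher without overlap and of 2.56% lower.

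The early steps to squalene and the later steps to cholesterol both held enzymes that leaned towards KD. Of the early enzymes, Acat2 (0.25, standard error 0.12) and Fdps (0.24, standard error 0.13) lay near Hmgcs1. Fdft1 was at 0.16 and Mvd at 0.15, and the mevalonate kinases Mvk (-0.04) and Pmvk (-0.07) lay below 0 on the log2 scale. Of the later ones, Cyp51, the lanosterol demethylase, was at 0.33 (standard error 0.14, raw p = 0.0511, exact permutation p = 0.114), Msmo1 at 0.24 and Sc5d at 0.21. Lss was at 0.16, and Hsd17b7 (0.08), Tm7sf2 (0.08) and Ebp (-0.0023) showed differences smaller than their standard errors, which were 0.15, 0.15 and 0.12.

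**Figure D2:**
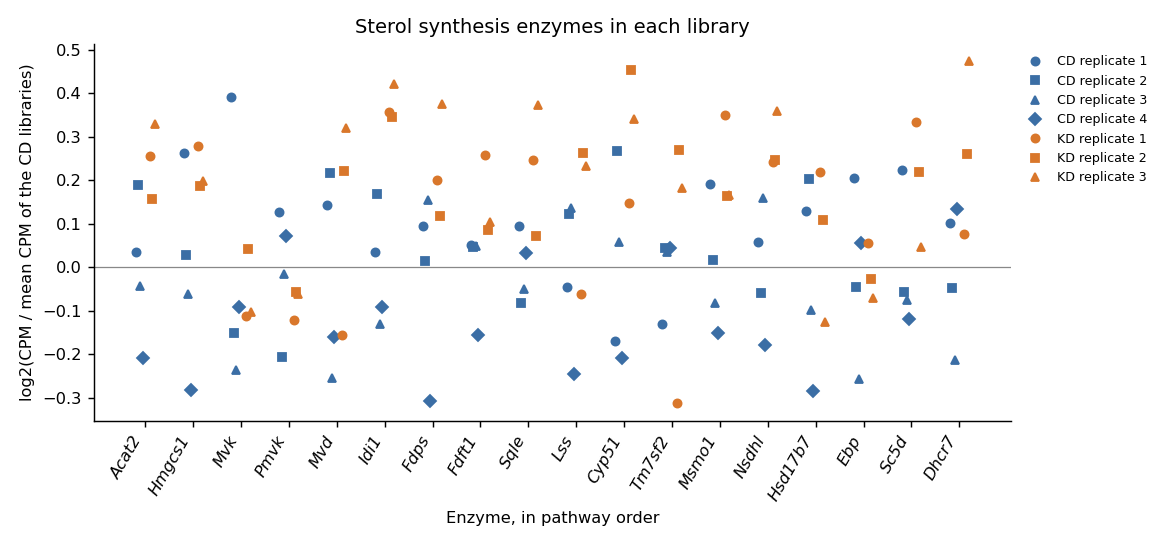
Level of each of the 18 sterol synthesis enzymes in the 7 libraries, as log2 of its CPM over the mean CPM of the CD libraries (blue, 4 libraries; orange, 3 KD libraries; the shape gives the replicate). For Idi1, Nsdhl and Fdft1 the orange points all lie above the blue ones, and CD replicate 4 (blue diamonds) is the lowest library for 10 of the 18 enzymes.

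The enzymes were higher as a group in each KD library rather than in 1. Their CPM summed to 1593, 1471, 1401 and 1255 in CD replicates 1 to 4 and to 1686, 1618 and 1651 in KD replicates 1 to 3, so that the KD libraries lay close together and above the CD libraries. Compared gene by gene with the CD mean, 13, 16 and 14 of the 18 enzymes were higher in the KD libraries, where 42.8%, 41.6% and 50% of all tested genes were. The numbers in CD replicates 1 to 4 were 15, 11, 6 and 5, where 45.8%, 40.9%, 45.8% and 58.8% of all tested genes were higher. CD replicate 1 thus resembled the KD libraries by this count, and CD replicate 4 was the lowest library for 10 enzymes.

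The KD lean depended in part on CD replicate 4, the library with the most meningeal and olfactory bulb RNA. Without it the median over the 18 enzymes was 0.14, with 14 higher and 3 at a raw p under 0.05 (the range without any other single library was 0.19 to 0.27). Without both CD replicate 4 and KD replicate 3 it was also 0.14, with 16 higher and 0 at that threshold. Without CD replicate 3 and KD replicate 3, the libraries with the least oligodendrocyte RNA, it was 0.20, with 14 higher and 1 at that threshold. With the mean log2 CPM of the oligodendrocyte markers as a covariate it was 0.22, with 17 higher and 5 at that threshold. Among all tested genes, 222 of 15660 were higher at that threshold without CD replicate 4, and 238 of 15796 without KD replicate 3 too. The numbers were 503 of 15825 without CD replicate 3 and KD replicate 3, and 190 of 15881 with the covariate. Other markers moved as well: 12 microglia markers summed to 504 to 836 CPM in CD and 657 to 941 in KD, and 10 astrocyte markers to 5730 to 6604 and 5267 to 7794 CPM. Their part in the result was not tested.

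The second comparison concerned the regulators, whose levels did not follow the enzymes: 1 of the 7 was higher in KD and 6 lower, with a median log2 fold change of -0.11. Of all tested genes, 49.0% were higher. Without CD replicate 4 the median of the regulators was -0.05 with 5 lower, and without both CD replicate 4 and KD replicate 3 it was also -0.05 with 5 lower. Without CD replicate 3 it was -0.11 with 7 lower, and without both CD replicate 3 and KD replicate 3 -0.11 with 6 lower. Srebf2 had 122, 101, 94.4 and 106 CPM in CD and 106, 99.6 and 104 CPM in KD, so every KD value lay inside the CD range (log2 fold change -0.03, standard error 0.10). Srebf1 had 42.1, 35.2, 27.8 and 48.8 CPM in CD and 33.7, 30.9 and 36.7 CPM in KD (log2 fold change -0.18, standard error 0.17). It was as variable among CD mice as any regulator other than Nr1h3, and the KD values again lay within the CD range. Its log2 fold change was -0.06 without CD replicate 4 and -0.30, with a raw p under 0.05, without CD replicate 3. Scap was at -0.05 (standard error 0.08).

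Insig1, which SREBP-2 itself switches on, had 163, 195, 134 and 143 CPM in CD and 171, 175 and 149 CPM in KD, with a log2 fold change of 0.06 (standard error 0.15). Its KD values were spread through the CD range. Insig2, the other anchor protein, had 51.4, 53.2, 56.7 and 65.4 CPM in CD and 51.9, 51.1 and 52.8 CPM in KD (log2 fold change -0.11, standard error 0.09, raw p = 0.230, exact permutation p = 0.257). The KD values lay at the low end of the CD range, and KD replicate 2 just below it, and without CD replicate 4 the value was -0.06.

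Of the liver X receptors, Nr1h2 was also the only regulator with a raw p under 0.05. This is 1 gene of 7, where 1.52% of tested genes were lower at that threshold. Nr1h2 had 13.5, 12.2, 11.1 and 13.7 CPM in CD and 9.41, 11.5 and 7.95 CPM in KD, and only KD replicate 2 overlapped the CD range. The log2 fold change was -0.37 (standard error 0.16), with a raw p of 0.0474 and an adjusted p of 0.979 in edgeR's quasi-likelihood test and an exact permutation p of 0.0857. It ran from -0.54 to -0.25 with any 1 library left out, and the raw p was under 0.05 in 2 of those 7 fits, those without CD replicate 3 or KD replicate 2. Nr1h3 stood at 2.05, 1.54, 2.10 and 3.39 CPM in CD and 2.10, 2.23 and 1.80 CPM in KD, a log2 fold change of -0.13 (standard error 0.29).

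The third comparison concerned genes that move, store or remove sterol. No gene of this group had a raw p under 0.05. In KD 6 of the 9 were higher, against 49.0% of all tested genes, with a median log2 fold change of 0.05. Cyp46a1, the neuronal 24-hydroxylase, had 100.2, 97.3, 97.3 and 90.8 CPM in CD and 85.4, 103 and 111 CPM in KD, and the KD values lay on both sides of the CD range (log2 fold change 0.06, standard error 0.10). Abca1, which loads cholesterol onto apolipoproteins, had 95.4, 104, 83.0 and 104 CPM in CD and 102, 87.2 and 90.7 CPM in KD (-0.04, standard error 0.10).

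Abcg1, a second liver X receptor target for export, had 111, 121, 88.8 and 127 CPM in CD and 102, 94.1 and 99.4 CPM in KD, with a log2 fold change of -0.17 (standard error 0.12). CD replicate 3 was below all KD libraries, and without it the value was -0.27, with a raw p under 0.05. Soat1, which stores cholesterol as esters, had 50.2, 38.9, 47.5 and 68.0 CPM in CD and 62.4, 51.0 and 59.04 CPM in KD (0.18, standard error 0.16). CD replicate 4 was above all KD libraries, and without it the value was 0.33, with a raw p under 0.05. The reelin and apolipoprotein E receptor gene Lrp8, the neuronal exporter Abcg4, the late endosomal transporters Npc1 and Npc2 and the sterol carrier Stard4 lay between -0.07 and 0.12, each with a raw p of at least 0.318. Stard4, highest in CD replicate 1, reached 0.22 and a raw p under 0.05 when that mouse was left out.

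The fourth comparison concerned fatty acid synthesis, where 6 of the 7 genes were higher in KD, none with a raw p under 0.05, and the median log2 fold change was 0.06. Acly was the steadiest member, with 298, 288, 286 and 280.0 CPM in CD and 304, 299 and 297 CPM in KD (0.07, standard error 0.07). Acaca, the rate-limiting acetyl-CoA carboxylase, had 110.0, 84.2, 114 and 97.7 CPM in CD and 145, 109 and 112 CPM in KD. KD replicate 1 alone lay above the CD range, and the log2 fold change was 0.28 (standard error 0.14, raw p = 0.0792, exact permutation p = 0.257), or 0.13 without that library. Without CD replicate 3 it was 0.34, with a raw p under 0.05.

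Fasn, the fatty acid synthase, had 303, 223, 240 and 259 CPM in CD and 309, 247 and 262 CPM in KD (0.10, standard error 0.12). The desaturases were close to equal between the diets: Scd1 had 239, 161, 152 and 181 CPM in CD and 222, 183 and 153 CPM in KD (0.03, standard error 0.18). Scd2 had 1348, 1108, 889 and 1207 CPM in CD and 1349.6, 1111 and 1075 CPM in KD (0.06, standard error 0.15). The elongases Elovl5 and Elovl6 were at 0.06 and -0.10 (standard error 0.16 for both).

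For the desaturases, Fasn and Elovl5, the spread within a diet was larger than the difference between diets. CD replicate 1 and KD replicate 1 were the 2 highest libraries for Fasn, Scd1, Scd2 and Elovl5, and their oligodendrocyte markers were also the 2 highest, at 4717 and 4631 CPM. CD replicate 3, with the lowest oligodendrocyte sum, had the lowest Scd1, Scd2 and Elovl5. CD replicate 2, with an oligodendrocyte sum of 4171 CPM, nevertheless had the lowest Fasn. Its median log2 ratio to the CD mean over this group was also the lowest (-0.19, against -0.15 in CD replicate 3). The part of oligodendrocyte RNA in these levels was not tested. Without KD replicate 1 the group's median log2 fold change was -0.05 with 2 of 7 higher, and without CD replicate 3 it was -0.01 with 3 of 7 higher. Without CD replicate 4 it was 0.07, without KD replicate 3 0.14 and without both 0.15, each with 7 of 7 higher. Without CD replicate 1 it was 0.16, and without CD replicate 3 and KD replicate 3 0.09, both with 6 of 7 higher. With the oligodendrocyte covariate it was 0.15 with 6 of 7 higher and none at a raw p under 0.05.

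**Figure D3:**
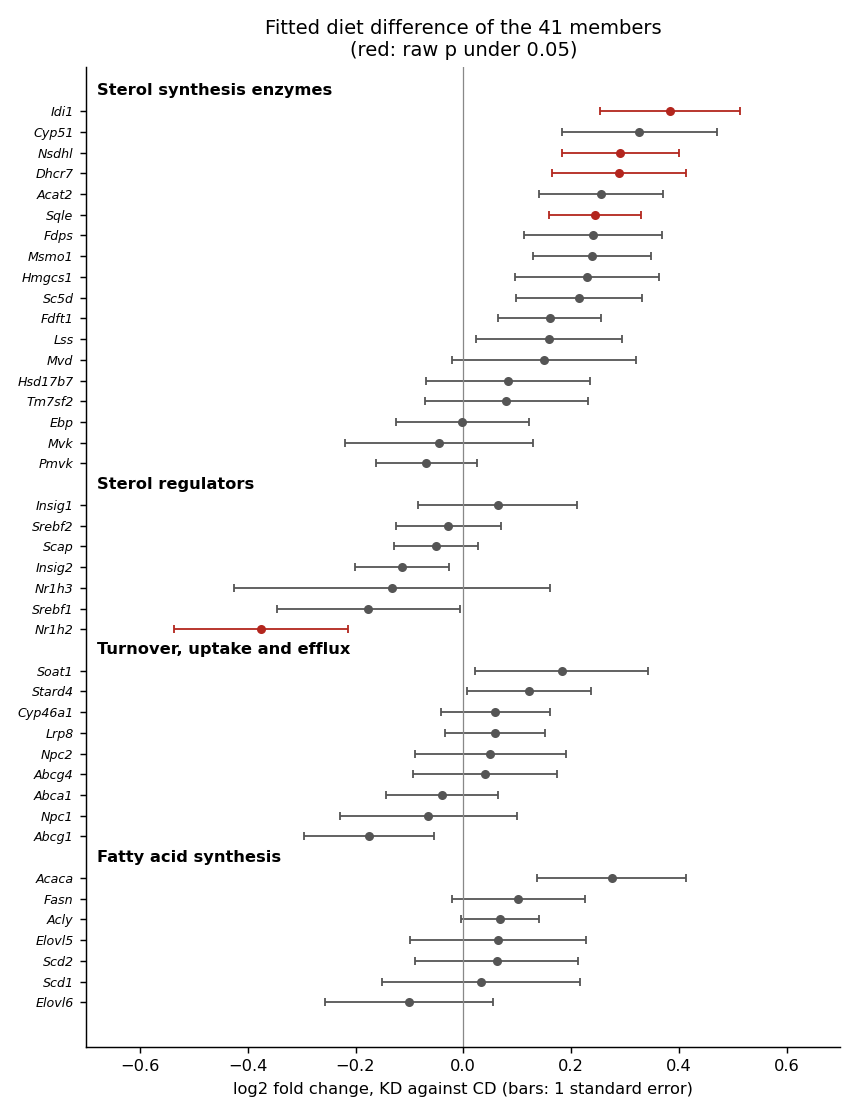
Fitted log2 fold change of KD against CD for the 41 members by role, with 1 standard error, from edgeR's quasi-likelihood fit over all tested genes. The sterol synthesis enzymes lie mostly right of 0 (15 of 18), the regulators mostly left (6 of 7), and the 5 genes with a raw p under 0.05 are red.

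**Figure D4:**
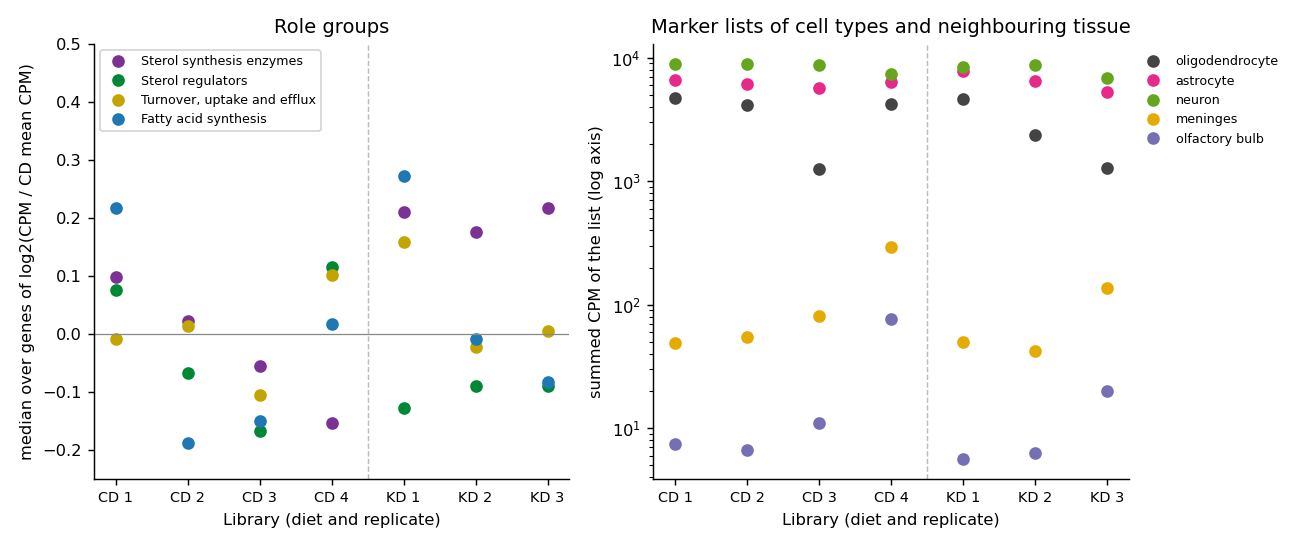
Left, median over the genes of each role group of log2 CPM over the CD mean, by library. Right, summed CPM of marker lists on a log axis. The sterol enzymes reach 0.21, 0.18 and 0.22 in the KD libraries against -0.15 to 0.10 in CD, and oligodendrocyte markers are lowest in CD replicate 3 and KD replicate 3.

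Over the whole set, 28 of 41 members were higher in KD, where 49.0% of all tested genes were. At a raw p under 0.05, 4 members were higher and 1 lower (12.2% of the set, against 3.19% of tested genes). The number of higher members fell to 22 without KD replicate 1 and to 23 without CD replicate 3. In those fits 49.0% and 49.3% of all tested genes were higher. The number was 31 without CD replicate 1, where 49.4% of all tested genes were higher. No member had an adjusted p under 0.05. Of 65 further genes of sterol and fatty acid metabolism found in the files, 64 were tested, and 26 were higher and 38 lower, with a median log2 fold change of -0.04. Without CD replicate 4, 32 were higher and 32 lower (median -0.003). Without both CD replicate 4 and KD replicate 3, 37 were higher and 27 lower (median 0.016). Without any other single library, 24 to 29 were higher. In the fit with all 7 libraries, 2 of the 64 had a raw p under 0.05, or 3.12%, of which 1 is described here. Rxra, the partner of the liver X receptors, was lower, with 45.5, 42.4, 34.1 and 53.4 CPM in CD and 34.4, 32.1 and 36.0 CPM in KD (-0.35, standard error 0.14, raw p = 0.0317, exact permutation p = 0.114). CD replicate 3 lay inside the KD range, and the raw p was under 0.05 in 2 of 7 fits with 1 library left out, those without CD replicate 3 or KD replicate 3. Adjusted over all tested genes, its p was 0.979 (edgeR).

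**Figure D5:**
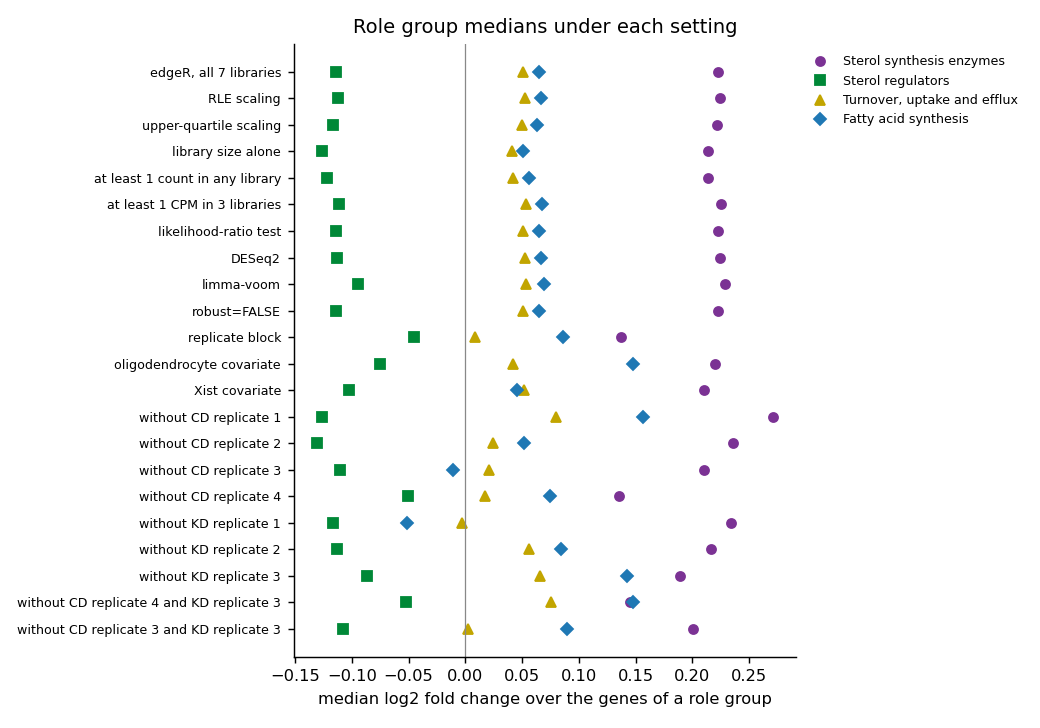
Median log2 fold change of KD against CD over the genes of each role group, from the fit with all 7 libraries and from each alternative setting. The sterol enzymes stay between 0.14 and 0.27, the regulators stay below 0, and the fatty acid and turnover groups fall below 0 when KD replicate 1 is left out.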

How the data were processed

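The authors aligned reads with STAR to mm10 and deposited, for each of 7 cortex libraries, raw gene counts made with HTSeq counting within STAR. Tool versions, annotation and strand setting are not given in the sources used here. The authors' own test was edgeR with a raw p of at most 0.01. Here counts were filtered with edgeR's filterByExpr, scaled by TMM, and tested KD against CD with the quasi-likelihood test (glmQLFit, glmQLFTest; R 4.3.3, edgeR 4.0.16), with Benjamini-Hochberg adjustment over 15881 genes. Each library is the cortex of 1 mouse. The 41 members and all gene lists were chosen with earlier results of these data known. Genes named are members with a raw p under 0.05, the members with the smallest p of each role, fixed control points, and other pathway genes with a raw p under 0.05, of which 1 is not reported here; the remaining members are given by value. Gene lengths and overlaps come from GENCODE M21. A count of 3 per library is the detection floor (0.0819 to 0.135 CPM), counting error only. Alternatives were other scalings, filters and tests, covariates, a replicate block and leaving out libraries, with DESeq2 1.42.0 and limma 3.58.1 among the tests. Leaving out CD replicate 4 with KD replicate 3, or CD replicate 3 with KD replicate 3, was chosen after seeing the data.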

Additional observations from a re-analysis of the deposited data

Results flagged for a closer look

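Values of the 4 CD libraries in which the highest or lowest library stood apart were sought by Dixon's ratio, the gap to the nearest library over the whole range, against its critical value at the usual level. Of 58 gene and marker list values examined, 10 passed, where chance gives about 1 in 20, or 2.9. Among members, Fdft1 passed with a ratio of 0.981 through a low CD replicate 4, the lowest library for 10 of the 18 enzymes. Tm7sf2 passed at 0.941 through a low CD replicate 1, and Sc5d (0.834) and Stard4 (0.837) through a high CD replicate 1. Among marker lists, the oligodendrocyte list passed at 0.843 through a low CD replicate 3. The neuron (0.863), meninges (0.872) and olfactory bulb (0.937) lists passed through CD replicate 4, the first with the lowest sum and the others with the highest. The choroid plexus (0.867) and liver (0.906) lists, which share Ttr, passed through CD replicate 1. The 3 KD libraries are too few for this ratio.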

How the results depend on the processing

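No member passed the adjusted threshold under any alternative run. Of 946 values of single genes under alternatives, 806 kept their direction and side of a raw p of 0.05, 58 lost and 32 gained that threshold, and 50 changed sign. The cause was not tested.

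Over all genes, those with a raw p of at most 0.01 numbered 103 by the likelihood-ratio test, 120 by DESeq2, 206 with Xist as covariate, 156 without CD replicate 3 and KD replicate 3, and 19 to 211 with 1 library left out, the highest without CD replicate 3. Those under 0.05 numbered 1015 with Xist, 894 without CD replicate 3 and KD replicate 3, and 256 (without CD replicate 1) to 1161 (without CD replicate 3) with 1 library left out. The adjusted threshold was passed by 1 gene by the likelihood-ratio test and by 1 with Xist. Members at or below 0.01 numbered 1 by DESeq2 and 0 to 2 with 1 library left out. Members under 0.05 numbered 1 of 41 by the likelihood-ratio test, where 285 of 15881 tested genes were higher and 213 lower at that threshold. Without CD replicate 4 and KD replicate 3 they numbered 1 of 41, where 238 of 15796 tested genes were higher and 152 lower. With 1 library left out, 2 to 7 members were under 0.05. Higher enzymes under 0.05 numbered 1 by the likelihood-ratio test, 0 without CD replicate 4 and KD replicate 3, 1 without CD replicate 3 and KD replicate 3, and 2 to 6 with 1 library left out, 2 both without KD replicate 2 and without KD replicate 3. The enzyme median ran from 0.14 (without CD replicate 4) to 0.27.

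The labels do not say whether mice with the same replicate number belong together. Same-numbered deviations correlated at 0.227, 0.178 and 0.0888. Differently numbered ones were not compared, so these values cannot decide whether the mice are paired. With a replicate block, 182 genes were at or below a raw p of 0.01 and 923 under 0.05, 1 member was at or below 0.01, 2 enzymes were higher under 0.05, the enzyme median was 0.14 and the regulator median -0.04. Signs changed with the block for Hsd17b7 (-0.0173), Ebp (0.00991), Nr1h3 (0.11), Npc1 (0.00622), Npc2 (-0.000484) and Elovl6 (0.0024).

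Signs also changed with the oligodendrocyte covariate for Mvk (0.016), Ebp (0.069), Srebf2 (0.0146), Abca1 (0.0202) and Npc1 (0.0424), with Xist for Scd1 (-0.00122), and for Ebp with the 1 CPM filter (0.000733) and limma-voom (0.00449). Without CD replicate 4 and KD replicate 3 they changed for Ebp (0.0435), Nr1h3 (0.20), Cyp46a1 (-0.046), Abca1 (0.0139), Npc1 (0.15) and Elovl6 (0.13), and without CD replicate 3 and KD replicate 3 for Mvd (-0.00285) and Abcg4 (-0.10). With 1 library left out, these genes crossed 0: Mvk (-0.11 to 0.12), Tm7sf2 (-0.048 to 0.23), Hsd17b7 (-0.014 to 0.18), Ebp (-0.076 to 0.076), Srebf2 (-0.077 to 0.050), Insig1 (-0.0064 to 0.19), Nr1h3 (-0.27 to 0.10), Lrp8 (-0.0030 to 0.12), Cyp46a1 (-0.0089 to 0.16), Abca1 (-0.11 to 0.012), Abcg4 (-0.084 to 0.13), Npc1 (-0.23 to 0.066), Npc2 (-0.060 to 0.15), Fasn (-0.0020 to 0.20), Scd1 (-0.12 to 0.19), Scd2 (-0.051 to 0.16), Elovl5 (-0.10 to 0.19, and 0.24 without CD replicate 4 and KD replicate 3) and Elovl6 (-0.24 to 0.014).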
